A study of Mus musculus with 4 samples.

Results

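miR-210 and miR-34a were followed through early molar development in the mouse, across 4 arrays of mandibular molar tooth germs from ICR embryos, an outbred laboratory strain. Their probes, mmu-miR-210 and mmu-miR-34a, are 2 of the 696 miRNA probes on each array, and 4 further probes of the miR-34 family (miR-34b-5p, miR-34b-3p, miR-34c and miR-34c*) were read beside them. Both miRNAs were selected on their measured signals in these data, which were undetected at embryonic day 11 (E11) and among the highest of such miRNAs at E16. Every contrast that uses E11 or E16, and the difference of either miRNA between E12 and E14, is therefore a description that supports nothing further. The embryos were untreated and of 4 ages, E11, E12, E14 and E16, with 1 array for each age. How many embryos were behind an array is not stated in the labels. With 1 array per stage there is no spread between animals and no test, and every ± below is the measurement error stated for the array, carried through to differences.

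miR-210 is the miRNA most widely induced by low oxygen. The hypoxia-inducible factor HIF-1α activates its gene, and its targets include the iron-sulphur cluster scaffold ISCU, so that it lowers mitochondrial respiration. miR-34a is a direct transcriptional target of p53, as are miR-34b and miR-34c, which come from a separate locus. Members of the miR-34 family repress genes that drive the cell cycle and survival, among them Cdk6, Myc and Bcl2. The related miR-449 miRNAs carry the same seed and are known from multiciliated epithelia. Over the stages sampled, the molar epithelium thickens, grows into the mesenchyme as a bud, and folds through the cap into the bell stage.

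The sequences below set miR-210 against the miR-34 seed group, with the seed (bases 2 to 8 of the mature miRNA) in capitals. They are RefSeq entries of build GRCm38.p6, in which 7 of the 9 probes of miR-210, miR-34 and miR-449 were matched; miR-34c and miR-449b were not.
miR-210-3p: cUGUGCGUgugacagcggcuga
miR-34a-5p: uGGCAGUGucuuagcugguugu
miR-34b-5p: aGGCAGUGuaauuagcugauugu
miR-449a-5p: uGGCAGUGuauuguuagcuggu
miR-449c-5p: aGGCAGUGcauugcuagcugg
Of 1679 mature mouse miRNAs in that table, miR-210-3p alone carries its seed UGUGCGU, and 4 carry GGCAGUG, the 4 shown. The unmatched miR-34c and miR-449b are outside this count. Counting substitutions, insertions and deletions, miR-34a-5p is 4 edits from miR-34b-5p, 6 from miR-449a-5p and 7 from miR-449c-5p. G and C make up 63.6% of miR-210-3p and 50% of miR-34a-5p, against a median of 52.2% over the table.

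The precursors are shown with the main arm in capitals, downstream in miR-210 and upstream in miR-34a. The probes are named without an arm (also miR-449a and miR-449c), and were taken to measure the main one; their sequences were not used here.
Mir210: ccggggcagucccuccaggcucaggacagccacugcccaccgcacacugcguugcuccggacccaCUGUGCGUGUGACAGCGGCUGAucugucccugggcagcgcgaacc
Mir34a: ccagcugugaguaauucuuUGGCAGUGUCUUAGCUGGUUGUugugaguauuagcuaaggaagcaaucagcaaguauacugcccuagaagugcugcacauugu
Mir210 lies on the minus strand at chr7:141221384-141221493 and Mir34a on the plus strand at chr4:150068454-150068555. Neither overlaps another gene of the RefSeq table, so both are intergenic there; the nearest genes are Rassf7, 2725 bases from Mir210, and the lncRNA Gm13067, 9736 bases from Mir34a. Mir34b and Mir34c lie 451 bases apart on chromosome 9, overlapping Btg4 and Hoatz, and Mir449a lies within Cdc20b on chromosome 13.

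Signals are the deposited total gene signal of each probe, a linear intensity that is not scaled between arrays and is written as 0.1 where the probe was not detected. The arrays detected 209, 221, 249 and 250 miRNAs at E11, E12, E14 and E16. For comparisons, the log2 signal was taken relative to the array's 75th percentile over the 197 miRNAs detected on all arrays; this percentile was 250.0, 398, 528 and 676. Marker miRNAs of epithelium, mesenchyme and muscle were read beside the tissue label, and they are not specific to tooth germ. Of 7 epithelial markers 6, 7, 7 and 7 were detected, with miR-141 missing at E11. Of 6 mesenchymal markers 5 were detected at each stage, with miR-145 missing throughout, and none of 6 muscle markers was detected at any stage.

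miR-210 was not detected at E11 and gave signals of 83.2 ± 8.8 at E12, 162.1 ± 12.8 at E14 and 265.8 ± 20.1 at E16. After scaling, its log2 levels were -2.26 ± 0.15, -1.70 ± 0.11 and -1.35 ± 0.11 at these stages. Each level was above the one before, and the stages differed by more than their combined errors. The level at E14 exceeded that at E12 by 0.55 ± 0.19 and that at E16 exceeded E14 by 0.36 ± 0.16 on the log2 scale. These steps each span the same number of days, and they differed by less than their error (-0.20 ± 0.30, second minus first), though by slightly more with quantile normalization and in the authors' table (-0.33 ± 0.30).

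miR-34a was likewise not detected at E11, and gave 20.5 ± 5.0 at E12, 65.5 ± 6.9 at E14 and 159.3 ± 13.04 at E16. Its log2 scaled levels were -4.28 ± 0.35, -3.01 ± 0.15 and -2.09 ± 0.12. The E12 signal was 4.13 times its stated error, close to the lowest ratio of a detected miRNA on that array (3.13), whereas the signals at E14 and E16 were 9.43 and 12.2 times theirs. The E14 level exceeded that at E12 by 1.27 ± 0.38, and the E16 level exceeded that at E14 by 0.93 ± 0.19. As for miR-210, the steps differed by less than their error (-0.34 ± 0.48).

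**Figure D1:**
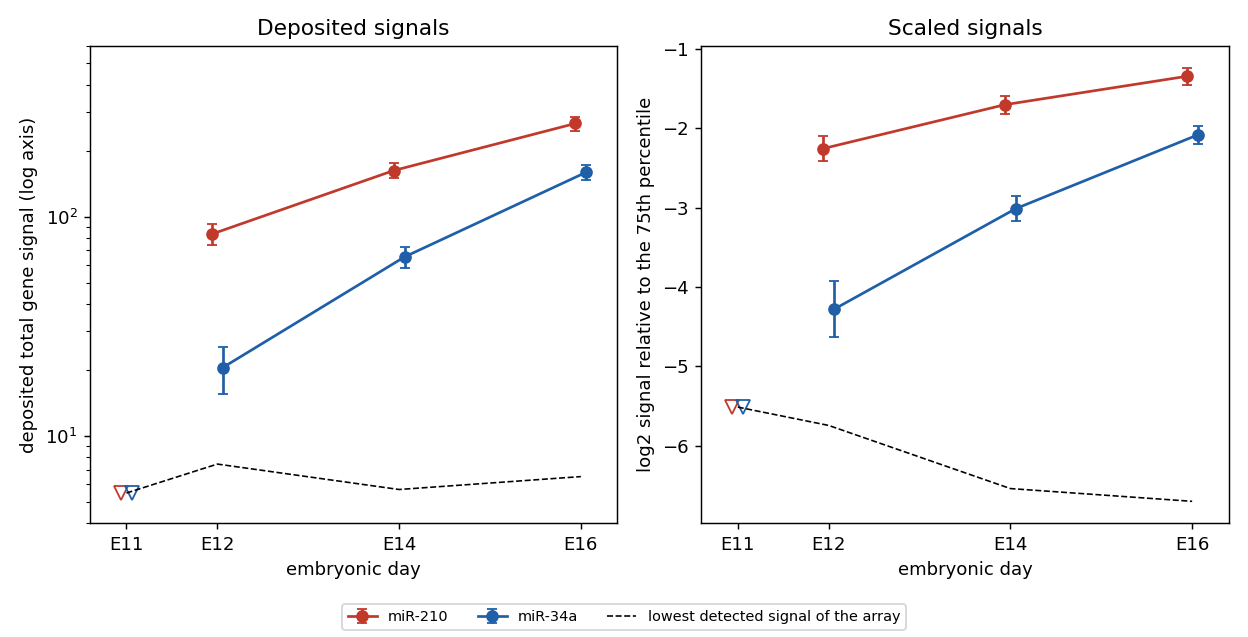
Signals of miR-210 and miR-34a at E11, E12, E14 and E16 as deposited (left, log axis) and as log2 signals relative to the 75th percentile of each array (right). Points are single arrays with the stated measurement error, open triangles mark stages without detection at the lowest detected signal of the array, and the dashed line joins those lowest signals; both miRNAs are higher at each stage from E12 to E16.

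Between E16 and E12, the last and the earliest stage with detection of both, miR-34a was 4.58-fold higher at E16 (log2 2.19 ± 0.37). miR-210 was 1.88-fold higher at E16 (0.91 ± 0.19). The median over all 215 miRNAs detected at both stages was -0.34. Relative to that median, miR-34a was higher by 2.53 and miR-210 by 1.25. A difference of 2-fold was reached upward by 6.05% of the 215 miRNAs, miR-34a among them and miR-210 not. The other 5 ways of scaling the arrays put miR-210 between 1.06 and 1.68, past 2-fold, and miR-34a between 2.34 and 2.96. Under these 5, between 16 and 60 of the 215 miRNAs were past 2-fold upward, against 13 under the main scaling. By size of change, miR-210 was number 15 from the top under the constant scalings, which cannot alter this order. It was number 16 with quantile normalization and in the authors' table, which equals that normalization. Both miRNAs kept their sign in each step under all 6 scalings. Between E14 and E12, 12.7% of 212 miRNAs were past 2-fold upward, miR-34a among them and miR-210 not. Between E16 and E14 that share was 7.36% of 231 (17 miRNAs), with neither miRNA past 2-fold under the main scaling. miR-34a passed it under the other 5 (1.06 to 1.28), where between 20 and 36 of the 231 miRNAs were past it.

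**Figure D2:**
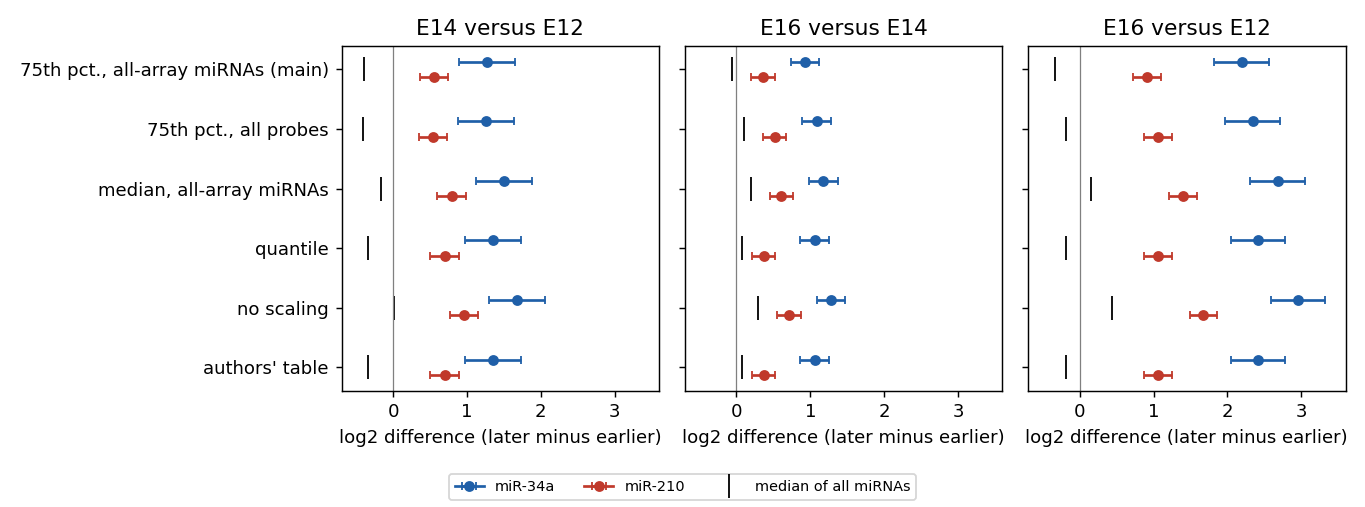
Log2 differences between stages (later minus earlier) for miR-34a and miR-210 under 6 ways of scaling the arrays. Bars are combined measurement errors of single arrays, and black ticks mark the all-miRNA median over those measured at both. miR-34a lies to the right of miR-210, and both lie to the right of the median, in each row of each panel. Constant scalings cannot alter this order, and the authors' table equals quantile normalization.

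A comparison of the 2 miRNAs with each other does not depend on a constant scaling of the arrays. miR-34a changed by 1.28 ± 0.41 more than miR-210 between E12 and E16 on the log2 scale, a 2.43-fold change in their ratio and 3.10 times its measurement error. Each step contributed, with 0.71 ± 0.43 between E12 and E14 and 0.57 ± 0.25 between E14 and E16. Quantile normalization, which is not a constant scaling, gave 1.35 over both steps together. The size of the error comes largely from the dim E12 signal of miR-34a.

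At E11 both miRNAs are known only as undetected, so that differences against this stage are lower bounds. With 5.48, the lowest signal detected on the E11 array, as the floor, miR-210 was at least 9.54-fold higher at E12, 14.0-fold at E14 and 17.9-fold at E16. For miR-34a the bounds were 2.35-fold, 5.65-fold and 10.7-fold. The stated error of the later signal was not taken off these bounds. At E12 it was 0.15 for miR-210 and 0.35 for miR-34a on the log2 scale. Over the 6 scalings the E12 bound ran between 5.89-fold and 15.2-fold for miR-210 and between 1.55-fold and 3.74-fold for miR-34a, and the E14 bound between 9.54-fold and 29.6-fold and between 3.98-fold and 11.9-fold. A probe can be undetected above the lowest detected signal, so these bounds are nominal. With the 10th percentile of the detected E11 signals (13.1) as the floor, miR-210 was at least 3.999-fold higher at E12 and 7.51-fold at E16. miR-34a was at least 4.50-fold higher at E16. No bound above 1 remained for miR-34a at E12 under the main scaling, with values between 0.87-fold and 1.57-fold over the 6 scalings. Of the 487 miRNAs undetected at E11, 4.11% were detected at E12 and 9.24% at E16, and both shares hold miR-210 and miR-34a. Among the bounds of the 45 detected at E16, miR-210 stood between miR-875-5p (at least 26.1-fold) and miR-34a, which was followed by miR-503 (6.34).

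How often probes of like signal were missed at E11 was counted as a description, since both miRNAs were selected for being missed there. On the E12 array 77 miRNAs had a signal within 2-fold of that of miR-210, itself included, and 5 of these were undetected at E11. For the dimmer miR-34a the same count was 14 of 49. At or above the member's own E12 signal, 1 of 120 miRNAs was undetected at E11 for miR-210, which is miR-210 itself, and 13 of 193 for miR-34a.

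The other probes of the family gave no signal. miR-34b-5p, miR-34b-3p, miR-34c, miR-34c*, miR-449a, miR-449b and miR-449c were undetected at all 4 stages, which leaves 1 of 8 miR-34 and miR-449 probes detected at E12, E14 and E16 and 0 at E11. Of all 696 miRNAs, 424 were likewise undetected at all 4 stages. On the E16 array, where miR-34a gave 159.3, miR-34b-5p was undetected, which shares its seed and differs by 4 edits. Signals of different probes do not give relative abundance. Only a nominal limit can be given for the undetected probes, since a probe can be undetected above the lowest detected signal. The lowest detected signals were 5.48, 7.43, 5.69 and 6.51 at E11, E12, E14 and E16. The 10th percentiles of the detected signals were 13.1, 17.6, 14.3 and 15.4.

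Patterns were compared by the root mean square distance of log2 signals over E12, E14 and E16, each miRNA centred on its own mean, a measure in which constant scaling cancels. Among the 209 other miRNAs detected at these 3 stages, the nearest to miR-210 were the epithelial miR-200c (distance 0.03), let-7c (0.06), miR-676 (0.09), miR-324-5p (0.12) and the erythroid miR-451 (0.12), where the median distance was 0.65. Of these, miR-676 was also undetected at E11, and had 25.1 ± 5.2, 42.6 ± 5.9 and 71.4 ± 7.9 from E12 on. The other 4 were detected at E11; miR-451 gave 404 there, against 422 at E12. The likeness to miR-210 therefore covers E12 to E16 alone. No measurement error was carried into the distances. miR-210 alone had log2 errors of 0.15, 0.11 and 0.11 at these 3 stages. The order among its nearest miRNAs is therefore not resolved.

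The nearest patterns to miR-34a were both arms of the miR-31 precursor, miR-31* (0.14) and miR-31 (0.15). miR-31* was undetected at E11 and gave 45.0 ± 7.2, 154.5 ± 12.1 and 439 ± 32 from E12 on. Next came let-7b (0.29), miR-200a (0.34) and the leukocyte miR-223 (0.36), against a median distance of 1.14. miR-210 was number 9 by distance from miR-34a (0.53), and miR-34a number 72 from miR-210. These distances rest on 3 arrays and carry no test. The log2 error of miR-34a at E12 (0.35) exceeds its distance to either miR-31 arm, so the order of those arms is not resolved.

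Besides miR-210 and miR-34a, 11 miRNAs were undetected at E11 and detected at every later stage, 13 in all. Of the 13, 7 had a higher level at each step from E12 under all 6 scalings: miR-141, miR-31*, miR-34a, miR-223, miR-210, miR-676 and miR-28. Of the 210 miRNAs detected at the last 3 stages, 27 did so. The other end of the group was held by miR-669a (-1.23 between E16 and E12) and miR-467b (-1.94). The 13 thus had no single course after E11.

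**Figure D3:**
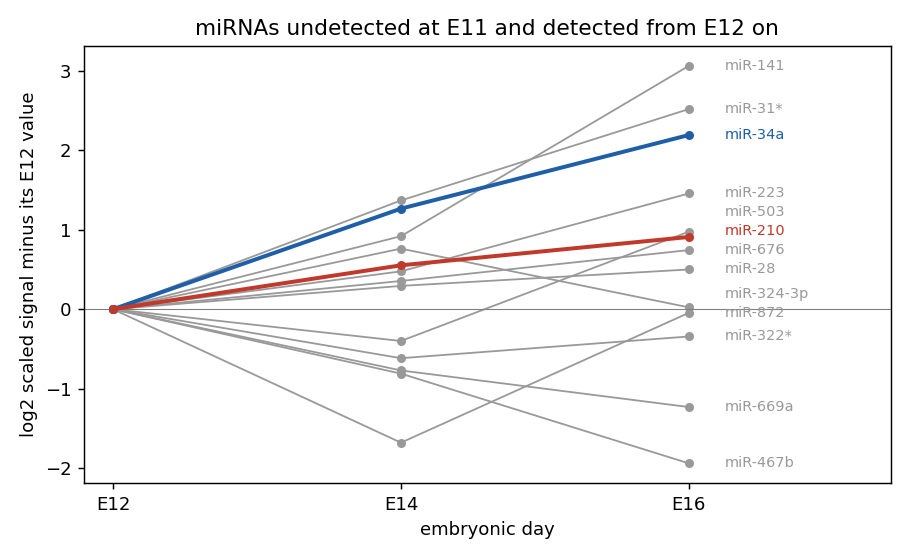
Log2 scaled signals at E12, E14 and E16, each relative to its own E12 value, for the 13 miRNAs undetected at E11 and detected at every later stage (single arrays, no error drawn). miR-34a (blue) ends at 2.19 and miR-210 (red) at 0.91; miR-141 ends highest at 3.07 and miR-467b lowest at -1.94.

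Other miRNAs described as responsive to low oxygen in cultured cells were read as a list of 13: miR-23a, miR-23b, miR-24, miR-26a, miR-26b, miR-27a, miR-27b, miR-103, miR-107 and the 4 main arms of the miR-181 family. All 13 were detected at every stage, as were 197 of all 696 miRNAs. miR-210 was not, having been selected for being undetected at E11. Between E16 and E12, 1 differed upward by 2-fold or more and 0 downward, where 6.05% of all miRNAs were higher and 19.1% lower. Their median was -0.00023, against -0.34 for all miRNAs. The member past 2-fold was miR-27a (1.39 ± 0.16), with 841 ± 61.9 at E16 and 188.6 ± 15.3 at E12. miR-23a (0.50 ± 0.16) and miR-27b (0.59 ± 0.17) were higher by less, and miR-103 (-0.58 ± 0.15) and miR-107 (-0.60 ± 0.16) were lower, the last 2 positive on the unscaled signals (0.19 and 0.16). Of 7 minor-arm probes of these miRNAs only miR-181a-1* was detected, where 424 of all 696 miRNAs were undetected at every stage.

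A second list held 10 miRNAs described as induced by p53 or matured with its help. miR-194, miR-215 and miR-145 were undetected at every stage, and miR-192, another direct p53 target, was detected at E16 alone (13.7 ± 4.4). Of all 696 miRNAs, 424 were undetected at every stage and 13 were detected at E16 alone. Of the 6 measured at both E16 and E12, 1 differed upward by 2-fold or more and 0 downward, beside the 6.05% and 19.1% of all miRNAs. Their median was 0.57, against -0.34 for all miRNAs. That member was miR-141 (3.07 ± 0.28), which is also an epithelial marker, and so is miR-200c (0.85 ± 0.15). miR-15a was at 0.66 ± 0.15, miR-143 at 0.48 ± 0.24, miR-16 at -0.15 ± 0.16 (0.62 on the unscaled signals) and miR-107, a member of both lists, was the lowest of the 6. None of the 5 minor-arm probes was detected.

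**Figure D4:**
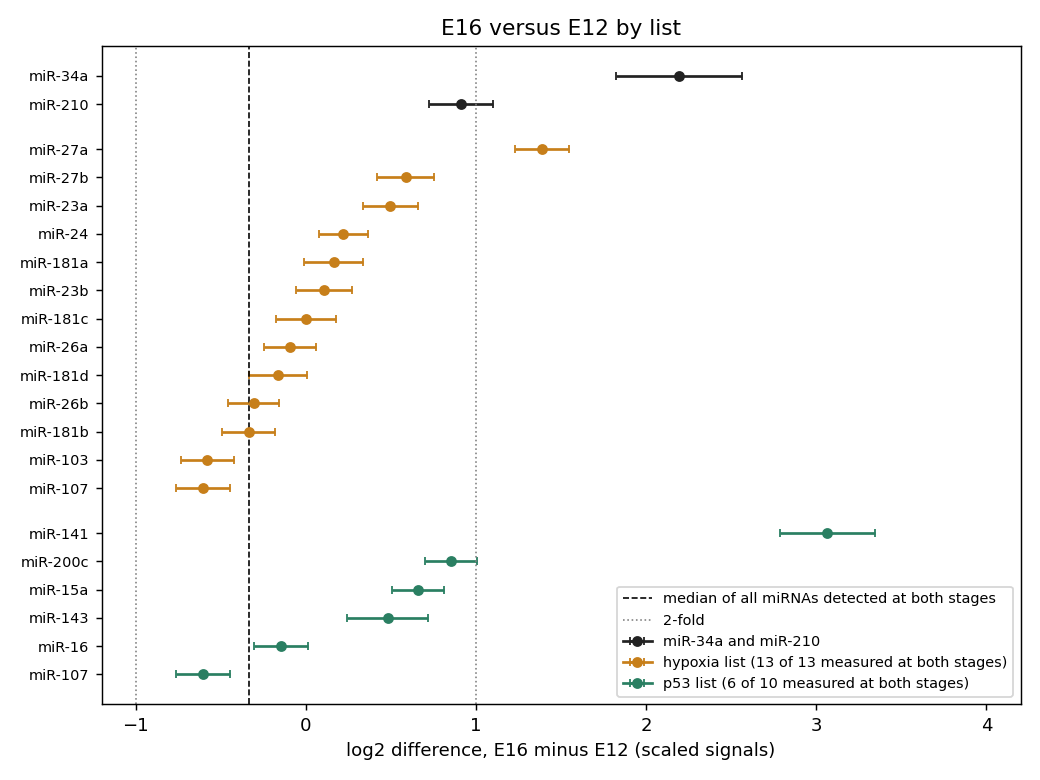
Log2 difference between E16 and E12 (scaled signals) for miR-34a and miR-210, for the 13 miRNAs of the hypoxia list and for the 6 of 10 miRNAs of the p53 list measured at both stages. Bars are combined measurement errors of single arrays, the dashed line is the median of all miRNAs (-0.34) and dotted lines mark 2-fold; miR-27a is the one hypoxia-list member past 2-fold and miR-141 the one p53-list member.

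Markers of cell types moved over the same stages. In these bulk samples fewer cells of a type and less RNA per cell cannot be told apart. In units of the 75th percentile of the array, the 7 epithelial markers summed to 7.18, 8.51, 10.2 and 13.9 at E11, E12, E14 and E16, and the mesenchymal markers to 43.6, 42.6, 21.1 and 18.9. Between E16 and E12 the epithelial sum was 1.63-fold higher at E16, with single markers between 0.37 (miR-200b) and 3.07 (miR-141) on the log2 scale; miR-205 gave 5317 of its deposited 9364 at E16. The mesenchymal sum at E16 was 0.44-fold of E12, and 0.75-fold on the deposited signals, while miR-143 within it was higher by 0.48. Against E11 the mesenchymal sum at E16 was 0.43-fold after scaling, but 1.17-fold on the deposited signals. Of 3 erythroid markers, miR-451 was detected throughout, miR-144 at E16 alone and miR-486 never; they summed to 1.62, 1.06, 1.26 and 1.82, 1.71-fold higher at E16 than at E12. The 2 endothelial markers were detected at every stage, with sums of 0.96, 1.12, 0.81 and 1.17. Of 5 leukocyte markers 0, 1, 1 and 2 were detected, with miR-142-5p, miR-150 and miR-155 never, and sums of 0.04, 0.06 and 0.22 from E12 on, 4.89-fold higher at E16 than at E12. Undetected markers add nothing to a sum, so the sums also move with detection. miR-142-3p, detected at E16 alone, gave 64.4 of the deposited 146.8 there. miR-223, the only leukocyte marker detected at E12, was higher at E16 by 1.46 ± 0.42 on the log2 scale. Of 5 neural markers 1, 2, 1 and 3 were detected, with sums of 0.06, 0.25, 0.07 and 0.15, and with the defining miR-124 and miR-9 never. The neural sums at E12 and E16 include miR-137 (deposited signals 59.2 and 47.5), which was undetected at E11 and E14. The part of these shifts in the courses of miR-210 and miR-34a was not tested.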

How the data were processed

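Total RNA of tooth germs at 4 stages was labelled with Cy3 and hybridised to 1-colour Agilent miRNA arrays, 1 per stage, per the labels' protocols. Per the file headers, the deposited intensity is the total gene signal of each of 718 features (696 miRNAs, 22 controls), with its error and a detection flag (an other, unitless column). Undetected features hold 0.1 and an error of 1. Neither labels nor headers name the software, the array design or the background correction. The series' value table, deposited by the authors as linear intensity with no stated method, equals quantile normalization of these signals and served as an alternative.

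Controls were dropped, and log2 signals were taken relative to the 75th percentile of the 197 miRNAs detected on all arrays. Errors of differences combine the stated errors. No test was possible, and 2-fold is a rule of size. The number of arrays limits the precision, and p-values are not given. The scaling code was tested on simulated data. Named miRNAs were the probes of miR-210, miR-34 and miR-449, the members of both lists, the 5 nearest patterns and the neighbours of each bound. Members, lists and rules were chosen with earlier results of these data known. Alternatives were 5 other scalings, other floors for undetected stages and a filter at 5 times the stated error. Python 3.11.15, numpy 2.4.6 and pandas 2.3.3 were used.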

Additional observations from a re-analysis of the deposited data

How the results depend on the processing

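No replicates exist, so leaving out an array was not possible. No paired analysis was possible because each stage has 1 array. The miR-34a and miR-210 differences between E16 and E12 kept their sign under all 6 scalings. Scaling by the median gave 2.68 for miR-34a and 1.40 for miR-210, and no scaling gave 2.96 and 1.68, with the median of all miRNAs at 0.15 and 0.43 in place of -0.34. The log2 bound E16 over E11 for miR-210 was 4.16, and 4.68 with median scaling, 3.62 with quantile normalization and in the authors' table, and 5.60 unscaled. For miR-34a it was 3.43, and 3.94, 3.05 in both quantile versions, and 4.86. A floor at the 10th percentile of detected E11 signals gave 2.91 for miR-210 and 2.17 for miR-34a. A floor added after seeing the data, 3 times the largest stated error in the lowest 20% of detected signals, gave 3.10 and 2.37. For miR-34a at E12 over E11 the 10th percentile gave -0.023 under the main scaling, no bound. A floor at 3 times a probe's own error was not run, since all undetected probes hold the same error of 1. Requiring 5 times the stated error left 0 miR-34 family probes at E12. The hypoxia list's median for E16 over E12 was 0.49 with median scaling and 0.77 unscaled, with 2 and 3 members at least 2-fold higher. The p53 list's median was 1.06 and 1.34 there, with 3 and 4 members higher, and 0.74 in both quantile versions; the 75th percentile over all probes put 2 members past 2-fold. Over all 215 miRNAs the number at least 2-fold higher moved likewise, at 13 under the main scaling, 38 with median scaling and 60 unscaled. Both lists had 0 members at least 2-fold lower under every scaling. Over all 215 miRNAs that number was 41 under the main scaling, 18 with median scaling and 11 unscaled.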

Other observations

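Detection flags were not always continuous over the stages. Besides the 13 miRNAs detected from E12 on, another 13 were undetected at a stage that lies between stages with detection. The brightest of them were miR-136, with 80.5 ± 8.3 at E16 and 20.01 ± 4.95 at E12, and the neuronal miR-137, with 47.5 ± 6.8 at E16 and 59.2 ± 7.6 at E12, both undetected at E11 and E14. 7 of these 13, led by miR-1906, were detected at E11, E14 and E16 and not at E12. miR-210 and miR-34a had no such gap after their first detection.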
